A study of Mus musculus with 6 samples.

Results

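The brush border is the carpet of microvilli on the apical face of the intestinal absorptive cell, and 10 genes of it are described here in the distal midgut at E13.5, in mid-gestation. They are the hydrolases *Anpep*, *Dpp4*, *Mep1a*, *Mep1b*, *Treh*, *Sis* and *Lct* and the structural genes *Vil1*, *Myo1a* and *Cdhr2*. The members were chosen by gene symbol, and every probe that the platform annotation names with one of these symbols was taken. Of the 10 genes, 5 have a named probe on the array, with 1 probe each: *Anpep*, *Mep1a*, *Mep1b*, *Treh* and *Vil1*. *Dpp4*, *Sis*, *Lct*, *Myo1a* and *Cdhr2* were found by neither symbol, gene ID nor accession and are not analysed here. Of the 5 measured genes, *Anpep* and *Vil1* were bright enough to be tested, out of 7322 genes with a tested probe in the whole series.

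The groups are 3 *Id2*-/- samples, which lack the helix-loop-helix inhibitor Id2, and 3 *Id2*+/+ samples from littermates, with 1 single-color array per sample. Mutant mice of the study were kept on an inbred or a mixed genetic background, and neither the labels nor the methods say which of them gave these embryos. The mutation is present in every cell of the embryo. The whole wall of the segment was extracted, so fewer cells of a type and less RNA per cell cannot be told apart. Nothing states whether a sample is a single embryo, and p-values therefore cover the spread among these 6 samples only.

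Each array holds 33012 probes, and 13890 to 16539 of them were above background, meaning a signal-to-noise value of at least 3 on an unflagged spot. The test took in 12741 probes, those with no bad flag on any array whose signal exceeded background throughout at least 1 genotype. Signals are relative to the median of the array, and differences are *Id2*-/- minus *Id2*+/+ on the log2 scale of that signal. The arrays numbered 1 stood apart in both genotypes, with a correlation across probes of 0.984 between them, whereas r was 0.909 to 0.931 between them and the rest and 0.979 to 0.988 within the rest. For the tested probes together, the median difference was 0.04 over all 6 arrays, and by pair it was 0.35 for the arrays numbered 1, -0.04 for those numbered 2 and -0.19 for those numbered 3. The targeted gene is not analysed here. Of 6 genes listed to check the label of the segment, *Fabp1*, *Muc13*, *Cdx2*, *Vil1* and *Epcam* were above background on all 6 arrays and *Cdx1* was above background on 0. All 5 tested genes of this check had a lower mean in *Id2*-/-, although 3 of them were higher in *Id2*-/- in the pair numbered 1. *Fabp1* and *Muc13*, which differed most, are given with the epithelial genes.

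Brush border hydrolases are membrane-anchored enzymes that carry out the last steps of digestion at the cell surface. Peptidases such as aminopeptidase N, dipeptidyl peptidase 4 and the meprins trim peptides, while sucrase-isomaltase, lactase and trehalase split sugars. The microvilli that carry them are built on bundled actin filaments: villin bundles and severs the filaments, the motor myosin 1a links them to the membrane, and the protocadherin Cdhr2 joins the tips of neighboring microvilli. In the mouse the pseudostratified endoderm of the gut tube is remodeled into villi after the stage sampled here, and several of these enzymes reach high levels only near or after birth.

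The sequences upstream of *Anpep* and *Vil1* are shown because these are the only members with signal on every array. Each is the window of 250 bases that ends at the base before the annotated start in RefSeq (GRCm38.p6), read 5' to 3' on the strand of the gene, at chr7:79848211-79848460 on the minus strand for *Anpep* and at chr1:74409134-74409383 on the plus strand for *Vil1*. Capitals mark the GC box GGGCGG and the CArG box CCWWWWWWGG (W is A or T), the element bound by serum response factor.
Anpep: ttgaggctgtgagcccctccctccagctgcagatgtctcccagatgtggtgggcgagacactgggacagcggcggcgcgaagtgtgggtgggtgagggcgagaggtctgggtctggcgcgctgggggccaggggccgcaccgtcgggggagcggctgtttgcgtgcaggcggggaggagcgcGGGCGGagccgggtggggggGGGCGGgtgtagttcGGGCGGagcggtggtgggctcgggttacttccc
Vil1: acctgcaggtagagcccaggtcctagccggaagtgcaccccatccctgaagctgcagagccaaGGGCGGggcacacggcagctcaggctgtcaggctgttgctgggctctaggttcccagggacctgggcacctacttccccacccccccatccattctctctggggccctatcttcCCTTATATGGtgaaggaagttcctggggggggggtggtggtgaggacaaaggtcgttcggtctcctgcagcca
The 2 windows differ in composition. The *Anpep* window had a GC content of 72.8% and 23 CpG dinucleotides, more than 86.7% of the 32851 windows of the same length. The *Vil1* window had a GC content of 62.8% and 5 CpG dinucleotides. The *Anpep* window held 3 GC boxes and no CArG box, and the *Vil1* window held 1 of each. The motif GGGCGG, searched on both strands, was in 32.7% of all windows and the CArG box in 1.47%.

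A window was listed for 9 of the 10 members, *Mep1b* being the exception. The windows of *Mep1a* and *Myo1a* lie inside the annotated span of the gene, and that of *Dpp4* lies partly inside it. TTTAT, the core bound by the intestinal homeodomain factor Cdx2, was searched on both strands and was in 37.3% of all windows. It occurred 4 times in the window of *Sis*, 2 times in that of *Lct* and 1 time in that of *Dpp4*. It was in none of the other 6 windows, those of *Anpep* and *Vil1* included. Its reverse complement lies within TATAAA, so the matches can overlap a TATA box. The windows of *Sis*, *Lct* and *Dpp4* had a GC content of 31.6%, 42.8% and 43.6%. Matches are descriptions of these letters in these windows only.

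*Anpep* encodes aminopeptidase N, which removes the first residue of peptides at the brush border and is also found on kidney tubule, myeloid and some stromal cells. Its probe, 923025, was above background on all 6 arrays. The signal was 19.7, 58.7 and 65.8 on the *Id2*-/- arrays numbered 1, 2 and 3, against 3.68, 26.3 and 38.1 on the *Id2*+/+ arrays. It was higher in *Id2*-/- than in *Id2*+/+ on each pair of same-numbered arrays, but the genotypes overlapped, since the *Id2*-/- array numbered 1 lay below 2 of the *Id2*+/+ arrays. On the log2 scale *Anpep* averaged 5.41 ± 0.96 in *Id2*-/- and 3.95 ± 1.81 in *Id2*+/+ (SD, n = 3 each).

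The difference of *Anpep* was 1.46 on the log2 scale (SE 0.90, 95% interval -0.67 to 3.58), a 2.74-fold ratio of geometric means. It did not pass the test, with an adjusted p of 1.0 in limma with Benjamini-Hochberg adjustment. In that fit 0.0% of the tested probes were called higher and 0.0% lower, and 234 probes, or 1.84%, had an unadjusted p under 0.05. Of all tested probes, 99.8% had a lower difference than *Anpep*, which ranked 25 from the top of 12741. The exact permutation test over the 6 arrays gave a two-sided p of 0.3, and the smallest p this design allows is 0.1. The difference was smallest without the *Id2*+/+ array numbered 1, at 0.42, and largest without the *Id2*+/+ array numbered 3, at 2.11.

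By pair, *Anpep* was higher by 2.42, 1.16 and 0.79 on the log2 scale, which is 5.36-fold, 2.23-fold and 1.73-fold. A difference above 0 in all 3 pairs was met by 11.8% of the tested probes. With the array number as a replicate block the same difference of 1.46 had an SE of 0.27 and an adjusted p of 2.22e-05 in limma, in a fit that called 1.06% of probes higher and 1.12% lower. In that fit all probes share a single variance, and the pairing by array number that it rests on was not tested against other pairings. Once quantile normalization was added to the block, the difference of *Anpep* was 1.48 with an adjusted p of 0.458, and 0.0% of probes were called in either direction. Without both arrays numbered 1, a setting added after the data were seen, the difference was 0.97 (adjusted p = 0.214 in limma).

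*Mep1a* and *Mep1b* encode the subunits of meprin, a metallopeptidase of the microvillus membrane. *Mep1a* had signals of 0.146, 0.404 and 0.298 on the *Id2*-/- arrays, against 0.374, 0.366 and 0.636 on the *Id2*+/+ arrays, and was above background on 0 of them. *Mep1b* had signals of 0.226, 0.458 and 0.285 on the *Id2*-/- arrays, against 0.301, 0.987 and 0.288 on the *Id2*+/+ arrays. It was above background on the *Id2*+/+ array numbered 2 alone, with a signal-to-noise value of 4.79. *Treh*, the trehalase gene, had signals of 0.491, 0.438 and 0.664 on the *Id2*-/- arrays, against 0.306, 0.547 and 0.480 on the *Id2*+/+ arrays, and was above background on 0 of them. The signals of all 3 genes overlapped between the genotypes and lay under the median of the array on all 6 arrays. No fold is given for them, because a difference was not detectable at this signal.

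**Figure D1:**
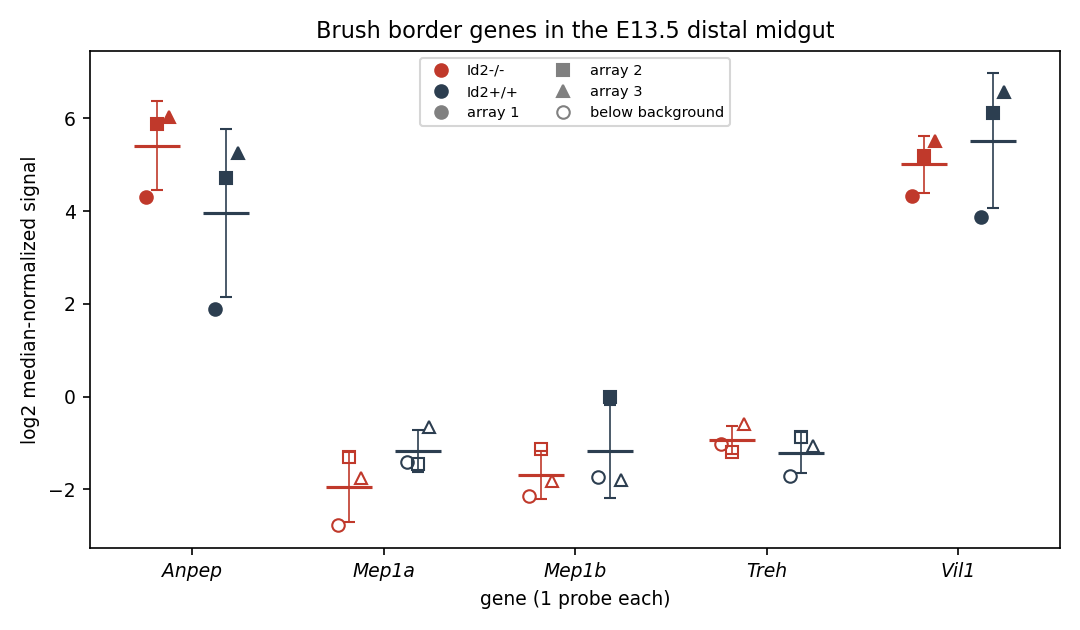
Signal of the 5 measured brush border genes on each array, as log2 of the median-normalized signal (y axis), for *Id2*-/- (red, left) and *Id2*+/+ (dark blue, right), with symbols for the array number, open where below background, and the mean and SD of 3 arrays as lines. *Anpep* and *Vil1* lie above background on all 6 arrays, whereas *Mep1a* and *Treh* do so on 0 arrays and *Mep1b* on 1 array, and the genotypes overlap for every gene.

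*Vil1* encodes villin, the actin-bundling protein of the microvillus core, and marks the gut endoderm before villi form. Its signal was 20.1, 36.6 and 45.9 on the *Id2*-/- arrays numbered 1, 2 and 3, against 14.6, 69.3 and 95.6 on the *Id2*+/+ arrays. Its probe, 365750, was above background on all 6 arrays. The genotypes overlapped, and the *Id2*+/+ arrays held both the lowest and the 2 highest signals. On the log2 scale *Vil1* averaged 5.01 ± 0.62 in *Id2*-/- and 5.52 ± 1.45 in *Id2*+/+ (SD, n = 3 each).

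The difference of *Vil1* was -0.51 (SE 0.71, 95% interval -2.17 to 1.16) and did not pass the test, with an adjusted p of 1.0 in limma. The pairs did not share a sign, at 0.46, -0.92 and -1.06 for the arrays numbered 1, 2 and 3. As ratios these are 1.38, 0.528 and 0.480. The pattern of a higher signal in pair 1 and a lower one in pairs 2 and 3 was met by 5111 of the tested probes, or 40.1%. The replicate block did not call *Vil1* (adjusted p = 0.842 in limma), and the exact permutation test gave a two-sided p of 0.6. The difference was -1.33 without the *Id2*+/+ array numbered 1 (adjusted p = 0.690 in limma) and 0.02 without the *Id2*+/+ array numbered 3. Without both arrays numbered 1 it was -0.99 (adjusted p = 0.211 in limma).

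The tested members therefore had differences of opposite sign. Their median was 0.48, which is the midpoint of only these 2 genes, and 0 of them were called higher and 0 lower. Because both genes varied widely between arrays of 1 genotype, *Anpep* was set against *Vil1* on the same array, a measure chosen after the data were seen. A constant of each probe enters such a ratio, and only its difference between the genotypes was read. The log2 ratio of *Anpep* to *Vil1* was -0.02, 0.68 and 0.52 on the *Id2*-/- arrays numbered 1, 2 and 3, against -1.98, -1.40 and -1.33 on the *Id2*+/+ arrays. The genotypes did not overlap, and the spread within each was small (mean 0.39 ± 0.37 in *Id2*-/- and -1.57 ± 0.36 in *Id2*+/+, SD, n = 3 each).

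The ratio of *Anpep* to *Vil1* was higher in *Id2*-/- by 1.96 on the log2 scale, or 3.90-fold, and by 1.96, 2.08 and 1.85 in the 3 pairs. The exact two-sided permutation p was 0.1, the smallest that 3 against 3 arrays can give, and 0.5 after Benjamini-Hochberg adjustment over the 5 permutation tests made. Ratios to *Vil1* that were higher in *Id2*-/- with no overlap were found for 212 tested probes, or 1.66%. Such a ratio bears on whether the 2 genes differed alike, and not on which of them changed.

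**Figure D2:**
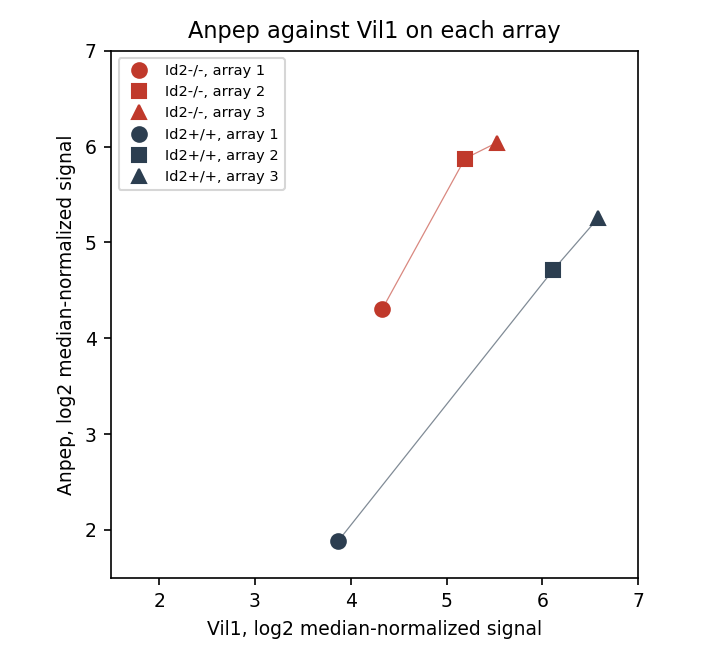
*Anpep* (y axis) against *Vil1* (x axis) on each of the 6 arrays, both as log2 of the median-normalized signal, with *Id2*-/- in red, *Id2*+/+ in dark blue and a symbol for each array number; thin lines join arrays of a genotype. Both genes are lowest on the arrays numbered 1 in each genotype, and the log2 ratio of *Anpep* to *Vil1* is higher on every *Id2*-/- array than on any *Id2*+/+ array, by 1.96 between the means.

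Both genes were also set against the epithelium as a whole, a measure likewise chosen after the data were seen. The mean of 17 tested pan-epithelial genes, among them keratins, claudins and *Epcam*, was subtracted from each gene on the same array. *Anpep* relative to these genes was -0.64, 0.94 and 1.07 on the *Id2*-/- arrays numbered 1, 2 and 3, against -2.64, -0.72 and -0.44 on the *Id2*+/+ arrays. It was higher in *Id2*-/- by 1.73, with pairs of 2.01, 1.66 and 1.52, but the genotypes overlapped and the exact permutation p was 0.2. *Vil1* relative to the same genes differed by -0.23, with pairs of 0.05, -0.42 and -0.33 and an exact permutation p of 0.6.

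**Figure D3:**
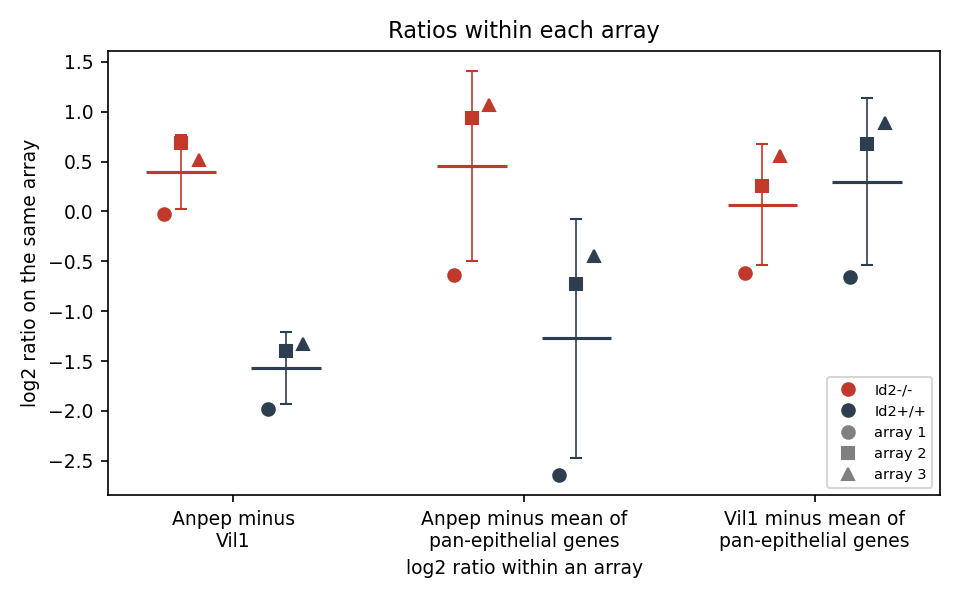
Log2 ratio within each array (y axis) of *Anpep* to *Vil1*, of *Anpep* to the mean of 17 pan-epithelial genes and of *Vil1* to that mean, for *Id2*-/- (red, left) and *Id2*+/+ (dark blue, right), with the mean and SD of 3 arrays. The genotypes do not overlap for *Anpep* to *Vil1* (3 *Id2*-/- arrays between -0.02 and 0.68, 3 *Id2*+/+ arrays between -1.98 and -1.33) and overlap for the other ratios.

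The tested genes of a second brush border list, of transporters, hydrolases and microvillus proteins, had means of the opposite sign to *Anpep*. Genes of that list with a probe but no test are not covered by this statement. Of 40 listed genes, 29 have a probe and 7 were tested: *Slc5a1*, *Slc9a3r1*, *Eps8*, *Ceacam1*, *Ush1c*, *Ezr* and *Amn*. All 7 had a lower mean in *Id2*-/-, with a median difference of -0.26, and 0 were called in either direction without the block, 0 having an unadjusted p under 0.05. *Slc5a1* had entered the test through the *Id2*+/+ arrays alone, where it was higher, and the other 6 differed by -0.30 to -0.22. Of these, *Amn* had entered through the *Id2*-/- arrays alone, with 2 *Id2*+/+ arrays above background. The medians of the 3 pairs were 0.17, -0.47 and -0.90. As for *Vil1*, 6 of the 7 were higher in pair 1 and lower in pairs 2 and 3, the pattern of 40.1% of all tested probes. A further 9 genes were above background on 0 arrays, among them the hydrolases *Akp3*, *Ace*, *Naaladl1*, *Mme* and *Plb1*, the peptide transporter *Slc15a1* and the protocadherin *Cdhr5*, which pairs with Cdhr2 in the links between microvilli.

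*Slc5a1*, the sodium-glucose cotransporter, had signals of 1.63, 0.590 and 2.34 on the *Id2*-/- arrays, against 1.20, 3.54 and 5.11 on the *Id2*+/+ arrays, exceeding background on 2 of the *Id2*-/- arrays and on all 3 *Id2*+/+ arrays. Its difference was -1.09 (SE 0.68, adjusted p = 1.0 in limma), with pairs of 0.44, -2.58 and -1.13. The replicate block called it lower (adjusted p = 0.0057), the only one of the 7 so called, and it was not called once quantile normalization was added (adjusted p = 0.759). *Slc9a3r1*, an ezrin-binding scaffold, differed by -0.23, and *Eps8*, an actin-capping protein of the microvillus tip, by -0.26.

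Of 24 listed pan-epithelial genes, 19 have a probe and 17 were tested. The mean was lower in *Id2*-/- for 16 of them, with a median difference of -0.29, and the test called 0 of them, as did the fit with the block. The medians of the pairs were 0.43, -0.48 and -0.82, and 14 of the 17 were higher in pair 1 and lower in the other two. *Epcam*, an adhesion molecule of all gut epithelial cells, had signals of 224, 269 and 260 on the *Id2*-/- arrays, against 133, 442 and 475 on the *Id2*+/+ arrays. Its pairs were 0.75, -0.72 and -0.87, the same order as for *Vil1*. *Krt7* and *Krt19*, keratins of simple epithelia, differed by -0.55 and -0.42, and *Ocln*, a tight junction protein, by -0.64. *Krt7* was the only one of the 17 with an unadjusted p under 0.05 (adjusted p = 1.0 in limma). Summed over the 19 genes with a probe, the signal was 890 to 991 in *Id2*-/- and 677 to 1668 in *Id2*+/+. Values of *Fabp1* and *Muc13*, from the check of the segment, follow. *Fabp1*, the fatty acid-binding protein of enterocytes, had signals of 2.70, 3.46 and 4.41 on the *Id2*-/- arrays, against 5.69, 11.8 and 17.5 on the *Id2*+/+ arrays, with no overlap. Its difference was -1.61 (adjusted p = 1.0 in limma), with pairs of -1.07, -1.76 and -1.98. *Muc13*, a mucin of the apical membrane, had signals of 1.08, 2.84 and 4.61 on the *Id2*-/- arrays, against 3.0, 15.4 and 21.1 on the *Id2*+/+ arrays, and differed by -2.03 (adjusted p = 1.0 in limma), with pairs of -1.47, -2.44 and -2.19. Both were lower in all 3 pairs, as were 5.64% of the tested probes. A signal lower in *Id2*-/- with no overlap, as for *Fabp1*, was found for 1.29% of the tested probes. The replicate block called *Fabp1* (adjusted p = 1.29e-06) and *Muc13* (adjusted p = 1.04e-10) lower, and with quantile normalization added their adjusted p was 0.242 and 0.271 in limma. The part of epithelial content in the values of *Anpep* and *Vil1* was not tested beyond the ratios above.

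**Figure D4:**
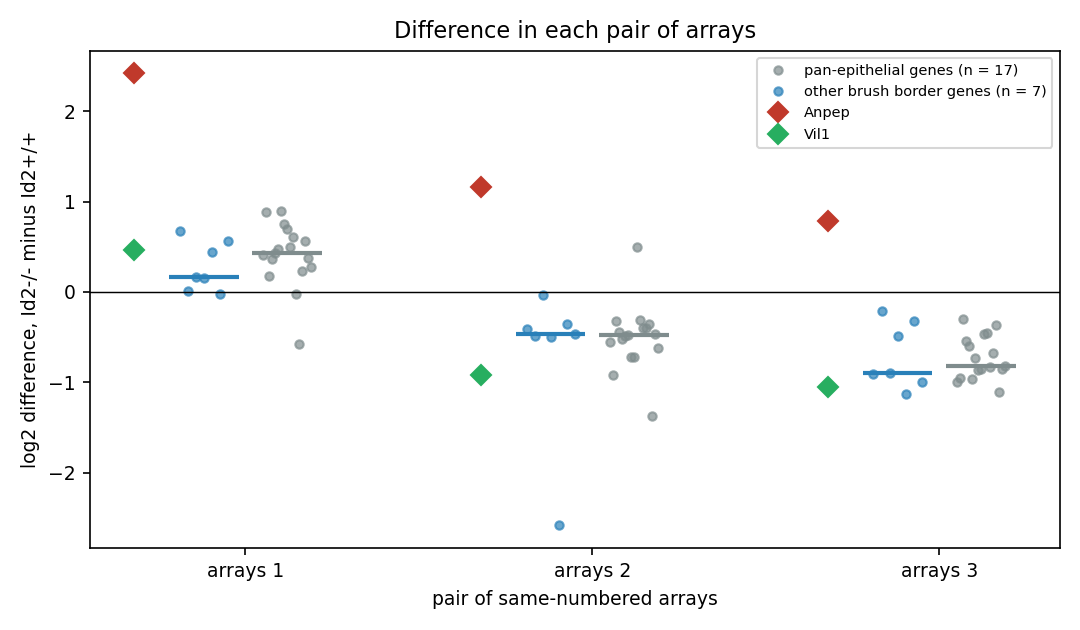
Difference between *Id2*-/- and *Id2*+/+ arrays of the same number (x axis), in log2 of the median-normalized signal (y axis), for *Anpep*, *Vil1*, 7 other brush border genes and 17 pan-epithelial genes; short lines are medians of the lists. *Anpep* lies above 0 in all 3 pairs, at 2.42, 1.16 and 0.79, whereas *Vil1* and the medians of both lists lie above 0 in pair 1 and below 0 in pairs 2 and 3.

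Transcription factors of the gut endoderm, which drive or accompany brush border genes, were read in the same way. Of 20 listed genes 9 were tested, of which *Elf3* is also in the pan-epithelial list, with a median difference of -0.20 and pair medians of 0.51, -0.48 and -0.82, and 0 were called without the block. *Cdx2*, the caudal factor that specifies intestinal endoderm, had signals of 67.4, 71.5 and 62.6 on the *Id2*-/- arrays, against 46.8, 112 and 133 on the *Id2*+/+ arrays. It differed by -0.40, with pairs of 0.53, -0.64 and -1.08. *Foxa2*, which encodes a pioneer factor of gut endoderm, exceeded background on all 3 *Id2*-/- arrays and on 0 *Id2*+/+ arrays. Its signal was 4.26-fold higher in *Id2*-/- as a ratio of geometric means (adjusted p = 0.598 in limma), with pairs of 1.74, 1.81 and 2.71. This ratio is an estimate and not a lower limit, and it rests on *Id2*+/+ signals below background. *Foxa2* entered the test through the *Id2*-/- arrays alone. The replicate block called it higher (adjusted p = 2.59e-11 in limma), and with quantile normalization added its adjusted p was 0.363. *Foxa3*, of the same family, entered the test through the *Id2*+/+ arrays alone, 1 of the *Id2*-/- arrays being below background. Its difference of -0.94, which rests partly on that signal, did not pass the test (adjusted p = 1.0 in limma); the block called it lower (adjusted p = 0.034), and the block with quantile normalization did not (adjusted p = 0.696). *Klf4*, a factor of differentiating gut epithelium, differed by 0.40.

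Because *Anpep* is expressed outside the epithelium too, markers of other cell types were summed on each array, over the genes with a probe. Mesenchymal and smooth muscle markers, 12 of 12 with a probe and 8 tested, summed to 4055 to 5202 in *Id2*-/- and 3023 to 5689 in *Id2*+/+. Endothelial markers, 7 of 7 with a probe and 5 tested, summed to 95.5 to 126 in *Id2*-/- and 51.6 to 107 in *Id2*+/+. All 5 tested endothelial means were higher in *Id2*-/-, with a median difference of 0.43 and pair medians of 1.27, 0.39 and -0.15. Macrophage and blood markers, 4 of 7 with a probe and 3 tested, summed to 32.6 to 48.7 in *Id2*-/- and 32.4 to 53.2 in *Id2*+/+. Of the kidney and mesonephros markers, 6 of 8 have a probe, and *Pax2*, *Lhx1*, *Cdh16*, *Umod* and *Emx2* were above background on 0 arrays; the list summed to 2.75 to 3.21 in *Id2*-/- and 1.55 to 7.63 in *Id2*+/+. The summed ranges of these lists overlapped between the genotypes, and their part in the difference of *Anpep* was not tested.

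The remaining lists were also measured. Erythroid markers summed to 1498 to 2338 in *Id2*-/- and 1239 to 1785 in *Id2*+/+, with 5 of 6 measured. All 5 erythroid means were higher in *Id2*-/-, with a median difference of 0.72 and pair medians of 0.78, 0.53 and 0.57. Of the 5, 3 were higher in all 3 pairs, as were *Anpep* and 11.8% of the tested probes. With or without the block 0 of the 5 were called. Enteric neural markers, 5 of 9 with a probe, summed to 617 to 779 in *Id2*-/- and 497 to 847 in *Id2*+/+, and mesothelial markers, 4 of 4, to 47.3 to 80.6 in *Id2*-/- and 31.6 to 133 in *Id2*+/+. Liver markers, 6 of 8, summed to 74.7 to 91.7 in *Id2*-/- and 62.7 to 139 in *Id2*+/+, and pancreatic markers, 6 of 8, to 7.44 to 15.9 in *Id2*-/- and 3.94 to 24.6 in *Id2*+/+, the highest sum being that of the *Id2*+/+ array numbered 1. Of 3 tested pancreatic markers, with a median difference of 0.98, the block called *Clps* (adjusted p = 1.12e-06; pairs of 0.57, 1.99 and 2.28) and *Pnliprp1* (adjusted p = 0.021; pairs of -0.88, 2.88 and 0.95) higher. Both had entered the test through the *Id2*-/- arrays alone, and 0 of the 3 were called without the block or with quantile normalization added to it. The summed ranges overlapped in each of these lists, and the part of these cell types in the difference of *Anpep* was not tested.

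Much of the spread of *Anpep* and *Vil1* lay between array numbers. The arrays numbered 2 and 3 exceeded the array numbered 1 in *Anpep* by 1.65 in *Id2*-/- and by 3.10 in *Id2*+/+ on the log2 scale, or 3.15-fold and 8.59-fold. In *Vil1* the excess was 1.03 in *Id2*-/- and 2.48 in *Id2*+/+, or 2.04-fold and 5.58-fold. Over all tested probes the median excess was -0.12 in *Id2*-/- and 0.28 in *Id2*+/+. The excess of *Anpep* was larger than that of 99.1% of probes in *Id2*-/- and 99.7% in *Id2*+/+, and that of *Vil1* larger than that of 95.9% in *Id2*-/- and 99.2% in *Id2*+/+. In the pan-epithelial genes the median excess was -0.06 in *Id2*-/-, with 7 of 17 genes above 0, and 0.94 in *Id2*+/+, with 16 of 17. In the other brush border genes it was 0.19 in *Id2*-/-, with 5 of 7 above 0, and 1.45 in *Id2*+/+, with 7 of 7. Neither the labels nor the methods say what the samples of 1 number have in common.

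Over the 6 arrays the profiles of *Anpep* and *Vil1* correlated at r = 0.674, which is a description of 6 points that share arrays and genotypes. The genes most like *Anpep*, among 7321 others, were *Opa3* (r = 0.998), *Brdt* (r = 0.995) and *Igsf3* (r = 0.993), and 369 genes, or 5.04%, exceeded 0.9. The genes most like *Vil1* were *Slc16a3* (r = 0.998), *Krt8* (r = 0.996) and *Pcbd1* (r = 0.995), and 1019 genes, or 13.9%, exceeded 0.9. *Krt8*, a keratin of simple epithelia, had pairs of 0.23, -0.35 and -0.37, the same signs as *Vil1*. The genes most like *Anpep* were higher in *Id2*-/- in all 3 pairs, by 0.45, 0.26 and 0.16 for *Opa3*. *Krt8* and these genes were picked for their profile over the same 6 arrays, so the shared signs were largely fixed by that choice.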

How the data were processed

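RNA of the distal midgut was amplified, labeled and hybridized by the authors to Applied Biosystems mouse genome survey arrays. For each probe the deposited files hold an intensity, which the authors divided by the array's median, a signal-to-noise score from the scanner software and a quality flag (other). The deposited series table was identical to them. The methods describe excluding flags under 5000 and scores under 3. Here the reverse was assumed for the flag, so that values from 5000 upward mark bad spots, and 32189 of 33012 probes were free of them. Gene names come from the platform annotation, which gives 14411 probes 1 symbol, 247 several and 18354 none, and upstream windows from RefSeq.

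Log2 values were fitted with limma 3.58.1 (R 4.3.3) and eBayes over 12741 probes without a block, with Benjamini-Hochberg adjustment at 0.05; permutation tests used scipy 1.17.1 and figures matplotlib 3.10.9. The fit was checked on simulated data that held no effect of the array number, so the check does not cover that effect. The numbers in the labels were taken to pair the arrays. After subtraction of the genotype means, arrays with the same number correlated at 0.838, 0.644 and 0.579 across probes. These values were not set against those of arrays with different numbers. Because a same-numbered array stood apart in each genotype, they cannot show how the remaining arrays pair. The labels say no more than that the embryos were littermates. Alternatives were the replicate block, an offset of 0.5, quantile normalization, 3 changed filters on dim probes, the series table, a trended robust prior, the methods' t-test, and leaving out each array. The members and lists were chosen with earlier results of these data known. Every member is named, with the 3 genes of smallest p in the lists of other brush border, pan-epithelial and transcription factor genes, *Cdx2*, *Epcam* and the 3 genes most like each tested member. Values of *Fabp1*, *Muc13*, *Clps* and *Pnliprp1* were added after they had been seen.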

Additional observations from a re-analysis of the deposited data

How the results depend on the processing

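With the array number as a replicate block the difference of *Anpep* was 1.46 as before but passed the threshold, so that 1 member was called higher; over all tested probes that fit called 135 higher and 143 lower, against 0 and 0 without the block. With quantile normalization added to the block, 0 members and 0 probes were called. The block also called *Slc5a1*, *Foxa3*, *Fabp1* and *Muc13* lower and *Foxa2*, *Clps* and *Pnliprp1* higher, and changed the call of no other gene of the lists. Leaving out 1 array at a time, the difference of *Anpep* ranged from 0.42 to 2.11, that of *Vil1* from -1.33 to 0.023, turning in sign without the *Id2*+/+ array numbered 3, and the median of the tested members from -0.46 to 1.07, its sign turning without the *Id2*+/+ array numbered 1. *Anpep* kept its direction under all 17 alternatives. The filters on dim probes, the series table, the block alone, the trended prior and the methods' t-test could not alter the difference itself. The ratio of *Anpep* to *Vil1* ranged from 1.76 to 2.17 over its 9 alternatives, and *Anpep* relative to the pan-epithelial genes from 1.04 to 2.28. Over 18 alternatives the median difference of the other brush border genes ranged from -0.76 to -0.12, that of the pan-epithelial genes from -0.61 to 0.02 and that of the transcription factors from -0.72 to 0.16. The cause of these changes was not tested. A block for slide or scan could not be fitted here, since the columns used carry neither. With 3 arrays per genotype, and signals of *Mep1a*, *Mep1b* and *Treh* near background, differences in these 3 genes were not detectable.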
